A study of Rattus norvegicus with 19 samples.

Results

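A set of 41 rat genes, read by 44 probe sets, was chosen because its RNA signal in deep motor cortex was lower 1 day after a spinal cord lesion than both in control animals and 3 days after the lesion. Probe sets entered if they had 1 gene symbol and a mean log2 signal of at least 5 over the 19 arrays, if all 3 day 1 arrays lay below all 4 control and all 3 day 3 arrays, and if the day 1 mean was at least 0.25 log2 below both other means. The array held 14121 probe sets, of 10561 genes, with 1 symbol and that mean, and 47 (0.333%) of them met these conditions. Of these, 3 were left out by name, those of Aspa and Rem2. A further 5 probe sets with 1 symbol showed the pattern at a mean under 5 and were not members. The mirror condition, a day 1 signal above both control and day 3 by as much, was met by 106 probe sets (0.751%).

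The animals were adult female Fischer 344 rats of 150 to 200 g. In each lesioned rat a wire knife was used to cut the dorsal columns at spinal level C3, and the cortex taken later was the deep part of the forelimb and hindlimb motor areas, which holds layer V. There were 4 control arrays, which the labels place at time 0 without saying whether those rats had a sham operation, and lesioned groups of 3 arrays at day 1, day 3, day 7, day 14 and day 49. Labels name separate samples without tying them to separate rats, so the p-values measure the spread between these samples. RNA from the whole dissected tissue was hybridised, so fewer cells of a type and less RNA per cell cannot be told apart.

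As background, the dorsal columns of the rat carry the main corticospinal tract, whose axons come from layer V pyramidal neurons, so a cervical cut injures those neurons far from their cell bodies. The tissue around the cell bodies, including glia, vessels and their matrix, is not itself cut. The first day after such an operation also covers anaesthesia, surgery and recovery, and many transcripts in brain vary with the time of day. The genes described here were grouped by a measured pattern, not by a pathway, and they include matrix proteins, receptors, transcription regulators, enzymes and transporters.

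Among the 19 arrays 2 differed from the rest. The median correlation of an array with the others was 0.931 for day14 replicate 2 and 0.969 for day49 replicate 2, against 0.994 to 0.997 for the other 17. For beta-actin, whose probe sets at both ends gauge RNA integrity, the 3′ over 5′ log2 difference was 2.24 in day14 replicate 2, 0.846 in day49 replicate 2 and 0.877 to 1.29 elsewhere. Counts and medians for days 14 and 49 are therefore given with and without these arrays. Layer V markers were present, with a list mean between 8.58 and 8.94 log2 on every array, although Fezf2 and Foxp2 lay under a mean of 5.

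The control, day 1 and day 3 values chose the members, so they are given as a description without a test. The dip, taken as the smaller of the falls from control and from day 3, had a median of 0.31 log2 and ran from 0.25 to 0.64. As a ratio, control over day 1 ran from 1.19-fold to 1.83-fold, with a median of 1.28-fold, so these were modest decreases. Only 4 members dipped by 0.5 or more, and 19 dipped by less than 0.3. Day1 replicate 2 was the lowest of the day 1 arrays in 20 members, replicate 3 in 13 and replicate 1 in 11. The gap between the lowest control and the highest day 1 array ranged from 0.0002 to 0.39, so for some members the groups only just separated. All day 1 arrays below all controls was a pattern of 3.48% of the eligible probe sets. By day 3 the arrays overlapped control in 42 of the 44, lay below all controls in 1 (background 3.33%) and above them in 1 (background 2.56%).

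**Figure D1:**
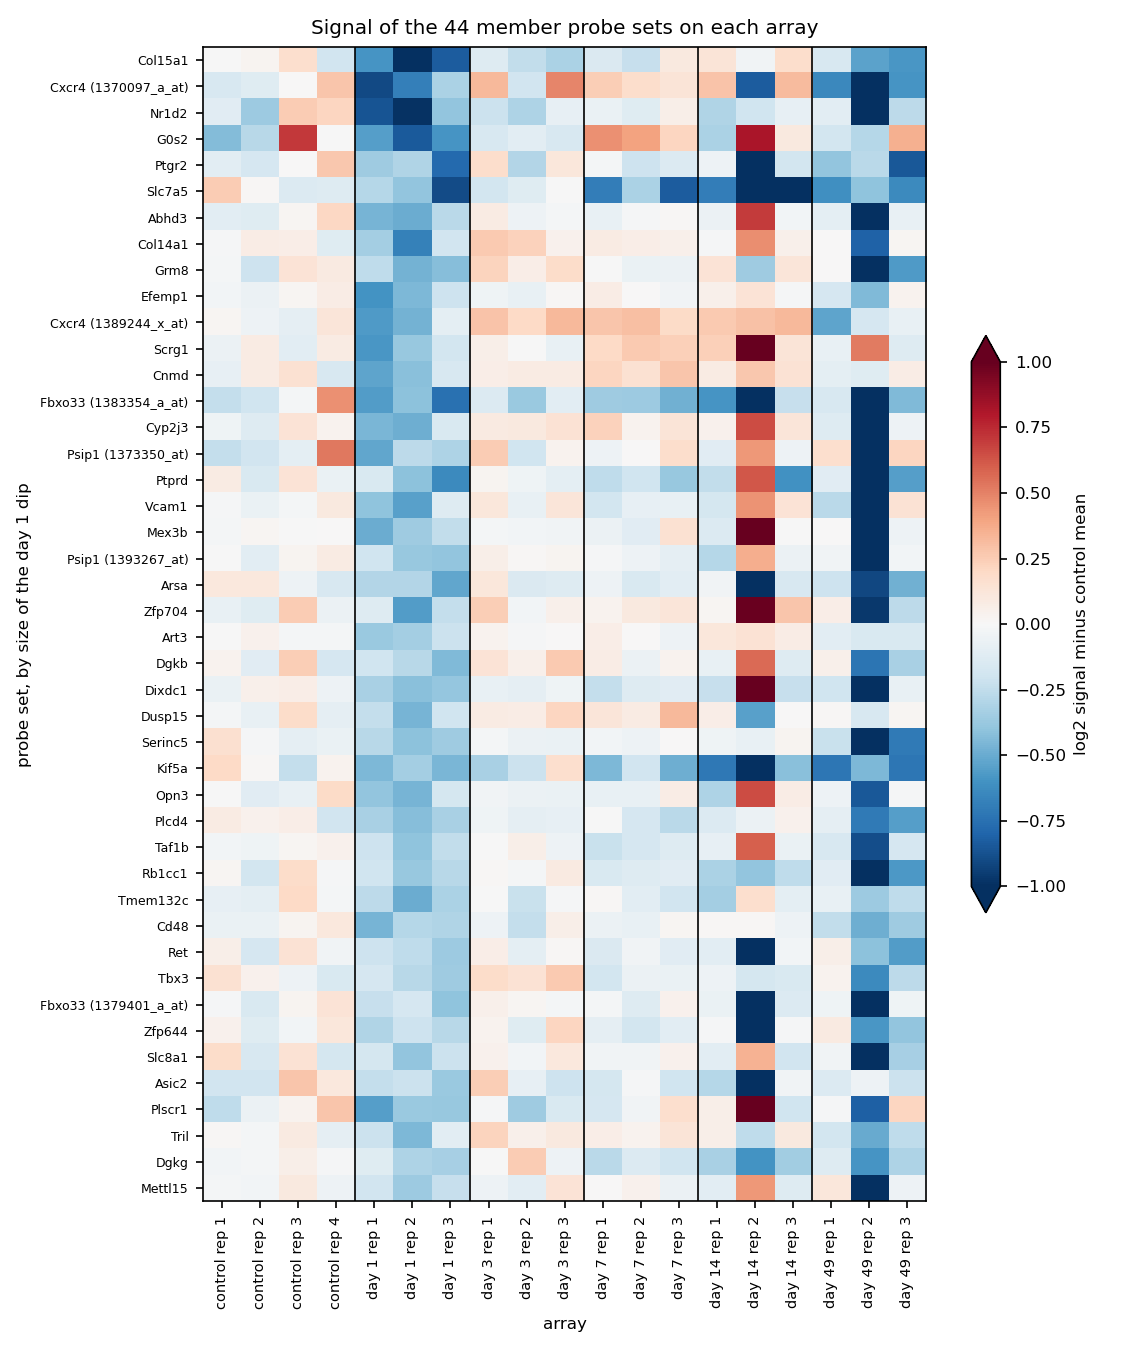
Log2 signal of each of the 44 member probe sets (rows, by size of the dip) on each of the 19 arrays (columns), minus that probe set's control mean; colours saturate at 1 log2 either way. The 3 day 1 columns are blue in every row by the choice of members, days 3 and 7 are near white, and day14 replicate 2 and day49 replicate 2 differ from the other arrays of their groups.

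By the limma fit over all 31042 probe sets, 1 of the 44 was among the 2 probe sets (0.00644%) called lower at day 1 against control, and 0 were among the 8 (0.0258%) called at day 3 against day 1, but nothing is read from these counts because the rule used those contrasts. The members just inside the limit were Dgkg, a diacylglycerol kinase, with a dip of 0.2548, and Mettl15, which methylates mitochondrial ribosomal RNA, with 0.2538. Just outside were probe sets of Amigo2 (0.2398) and Olfml2a (0.2385), so the limit does not fall at a break in the values.

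The 4 matrix genes were Col15a1, Col14a1, Efemp1 and Cnmd, with dips from 0.37 to 0.64. Col15a1 encodes a collagen of the basement membrane zone and had the largest dip of all members. Its control arrays read 6.54, 6.57, 6.71 and 6.35 log2, and its day 1 arrays 5.95, 5.34 and 5.71. Signal was back to 6.41, 6.29 and 6.22 at day 3 and to 6.39, 6.31 and 6.64 at day 7. All 3 day 1 arrays were low and separate from every other array of these groups, and the day 3 arrays stood between day 1 and most controls. Col15a1 read 6.67, 6.51 and 6.72 at day 14 and 6.38, 6.01 and 5.96 at day 49, so 2 of the 3 day 49 arrays were again below all controls. The other Col15a1 probe set, brighter at a mean of 8.01 and no member, differed from control by 0.05 (SE 0.15) at day 49. Without day14 replicate 2 and day49 replicate 2 the difference was 0.02 (SE 0.16), so the low day 49 value was not seen on it. Col14a1, a fibril-associated collagen, went from 7.23 ± 0.09 (SD, n = 4) in control to 6.82 ± 0.25 (SD, n = 3) at day 1 and 7.41 ± 0.12 at day 3. Efemp1, which encodes the elastic fibre protein fibulin-3, went from 9.32 ± 0.06 to 8.91 ± 0.20 and 9.29 ± 0.04. Cnmd encodes chondromodulin, known from cartilage as an inhibitor of vessel growth. It read 8.66 ± 0.14, 8.29 ± 0.19 and 8.74 ± 0.01 at the same times, and then 8.87, 8.81 and 8.94 at day 7, where every array was above all controls, the lowest of them only just. In each of these 4 genes the day 1 arrays were farther apart than the control arrays. Col15a1 was lowest on day1 replicate 2 and Cnmd on day1 replicate 1.

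Receptors and adhesion molecules made up the largest set, with 10 probe sets of 9 genes: Cxcr4, Vcam1, Ptprd, Cd48, Ret, Grm8, Opn3, Tril and Tmem132c. Their dips ran from 0.26 to 0.63. Vcam1 is an adhesion molecule of activated vessels, Ret the signalling receptor of the GDNF family, Opn3 an opsin of brain, and Tril a partner of Toll-like receptors. Cxcr4 is the receptor for the chemokine Cxcl12, which guides migrating cells, and 2 of its 3 probe sets were members. On the probe set with the larger dip, control arrays read 6.82, 6.86, 6.99 and 7.26, day 1 arrays 6.08, 6.30 and 6.67, and day 3 arrays 7.30, 6.79 and 7.47. On the second, the control mean was 7.61 ± 0.09 (SD, n = 4), the day 1 mean 7.23 ± 0.25 (SD, n = 3) and the day 3 mean 7.88 ± 0.06, and the day 3, day 7 and day 14 arrays all lay above every control. The third probe set also had its lowest mean of the 3 groups at day 1 (6.85, against 7.30 in control and 7.61 at day 3), but 1 of its day 1 arrays, at 7.27, overlapped the controls.

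The other receptors had smaller dips. Grm8, a presynaptic metabotropic glutamate receptor that lowers transmitter release, read 6.16, 5.98, 6.32 and 6.27 in control and 5.93, 5.71 and 5.76 at day 1, then 6.41, 6.25 and 6.37 at day 3. It was 1 of 32 matched glutamate and GABA receptor genes, of which 16 had a day 1 mean below both control and day 3, against 40.0% of the eligible probe sets. These sets are unlike, since lists were read by the brightest probe set of each gene without a minimum. Of the 32 genes, 14 had a mean under 5. Of the other Grm8 probe sets, 1 with a mean of 8.55 was 0.11 higher at day 1 than in control, so the dip was not seen on it. The remaining one, dim at a mean of 4.57, had a day 1 mean of 4.40, against 4.76 in control and 4.65 at day 3. Cd48, a surface protein known from lymphocytes as a ligand for other immune receptors, went from 11.14 ± 0.08 (SD, n = 4) to 10.79 ± 0.10 (SD, n = 3) and back to 11.07 ± 0.15. Ptprd, a receptor tyrosine phosphatase that organises synapses, went from 5.61 ± 0.14 to 5.21 ± 0.24 and 5.57 ± 0.06. In Grm8, Cd48 and Ptprd the drop was small but larger than the SD of either group.

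Regulators of transcription and RNA were Nr1d2, Psip1, Mex3b, Zfp704, Zfp644, Tbx3, Taf1b and Mettl15, with 9 probe sets and dips from 0.25 to 0.55. Tbx3 is a T-box repressor, Taf1b a factor of RNA polymerase I, and Mex3b an RNA-binding protein. Nr1d2 encodes REV-ERB beta, a repressor in the circadian clock that binds the same DNA elements as the ROR activators. Its control arrays read 8.12, 7.87, 8.49 and 8.45 and its day 1 arrays 7.36, 7.24 and 7.83. By day 3 they were at 8.01, 7.92 and 8.15, and at day 7 at 8.17, 8.11 and 8.29. The highest day 1 array came close to the lowest control, and the other day 1 arrays were well below. The other Nr1d2 probe sets were lower at day 1 too, by 0.59 on that with a mean of 8.66 and by 0.77 on that with a mean of 4.49, although their day 1 arrays were not separate from all control and day 3 arrays. Psip1, a chromatin-binding protein also known as LEDGF, had 2 member probe sets, with dips of 0.36 and 0.32. One went from 7.39 ± 0.36 (SD, n = 4) to 7.02 ± 0.14 (SD, n = 3) and 7.41 ± 0.22, and the other from 7.81 ± 0.08 to 7.48 ± 0.10 and 7.84 ± 0.02.

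The sequence just upstream of several members is shown for reference, since the member Nr1d2 encodes a repressor that binds DNA; the shared dip itself was the condition for choosing the genes. Promoters came from RefSeq on build GRCr8, for 35 of the 41 genes, as the 250 bases before the annotated gene start, on the gene's own strand and 5′ to 3′. Of 7 motifs searched on both strands, capitals mark those found. Nr1d2 (chr15:9954784-9955033, plus strand) holds AGGTCA, searched as a ROR half-site with no condition on the bases beside it. Slc7a5 (chr19:66872413-66872662, minus strand) holds an E-box. Col15a1 (chr5:66297296-66297545, plus strand) and Cxcr4 (chr13:42634289-42634538, minus strand) are shown as the members with the largest dips and hold none of the 7.
Nr1d2: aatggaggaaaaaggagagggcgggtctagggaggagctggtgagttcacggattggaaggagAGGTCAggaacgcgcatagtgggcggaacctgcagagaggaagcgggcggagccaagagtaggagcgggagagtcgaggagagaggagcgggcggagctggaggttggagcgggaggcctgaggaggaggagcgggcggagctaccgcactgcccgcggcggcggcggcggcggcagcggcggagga
Slc7a5: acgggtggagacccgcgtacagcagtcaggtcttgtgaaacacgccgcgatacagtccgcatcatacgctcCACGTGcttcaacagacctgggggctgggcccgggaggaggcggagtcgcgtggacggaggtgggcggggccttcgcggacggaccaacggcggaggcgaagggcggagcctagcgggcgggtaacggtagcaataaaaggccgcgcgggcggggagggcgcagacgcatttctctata
Col15a1: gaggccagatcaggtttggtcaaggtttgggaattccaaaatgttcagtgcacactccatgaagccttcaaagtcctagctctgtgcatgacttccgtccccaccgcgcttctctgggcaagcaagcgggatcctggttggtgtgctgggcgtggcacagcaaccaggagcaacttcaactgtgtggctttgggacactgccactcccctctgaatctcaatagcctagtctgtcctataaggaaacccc
Cxcr4: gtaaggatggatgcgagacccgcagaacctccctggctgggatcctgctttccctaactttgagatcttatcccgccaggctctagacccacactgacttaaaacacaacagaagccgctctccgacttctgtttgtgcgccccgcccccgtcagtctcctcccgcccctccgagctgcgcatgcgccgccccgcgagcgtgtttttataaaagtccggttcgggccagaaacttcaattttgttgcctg

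Among the 35 member promoters the ROR half-site AGGTCA was found in 4, those of Nr1d2, Abhd3, Grm8 and Art3, against 13.7% of 27457 promoters of the same length. The E-box CACGTG was found in 1, that of Slc7a5, against 5.79%, and the D-box TTANGTAA in 1, that of Plscr1, against 2.02%. No member promoter held the glucocorticoid half-sites ACANNNTGT (5.62% of all promoters), the ATF4 composite site TGATGNAA (3.27%), the cyclic AMP element TGACGTCA (1.70%) or an NF-kB site (0.317%). No letters of these motifs overlapped in the promoters printed. A match is a run of letters and does not show binding, and a lack of matches says only that the letters are not in this window.

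Genes of lipid and small-molecule metabolism were G0s2, Ptgr2, Abhd3, Cyp2j3, Arsa and Serinc5, with dips from 0.30 to 0.52. G0s2 encodes an inhibitor of the triglyceride lipase ATGL. Its control arrays spread widely, at 6.43, 6.59, 7.57 and 6.86, and its day 1 arrays were at 6.31, 6.02 and 6.27. Day 3 arrays read 6.70, 6.76 and 6.70, and day 7 arrays 7.32, 7.26 and 7.08. All day 1 arrays were thus below all controls, but closely so for replicate 1, and the control SD of 0.51 was the largest among the members. Ptgr2, a prostaglandin reductase, went from 5.64 ± 0.19 (SD, n = 4) to 5.16 ± 0.26 (SD, n = 3) and 5.63 ± 0.26. Abhd3, a phospholipase, went from 9.26 ± 0.15 to 8.85 ± 0.12 and 9.26 ± 0.07, and Cyp2j3, a cytochrome P450 that makes epoxides of arachidonic acid, from 6.37 ± 0.11 to 6.00 ± 0.19 and 6.48 ± 0.03. At day 3 all 3 of these means were again close to control.

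The transport genes were Slc7a5, Slc8a1, Asic2 and Kif5a, with dips from 0.26 to 0.42. Slc8a1 is a sodium-calcium exchanger and Asic2 an acid-sensing sodium channel. Slc7a5 encodes LAT1, the light chain of a transporter that carries large neutral amino acids across the blood-brain barrier and into cells. Its control arrays read 7.64, 7.40, 7.25 and 7.26, its day 1 arrays 7.10, 6.99 and 6.50, and its day 3 arrays 7.21, 7.27 and 7.38. Day 3 thus overlapped control. Kif5a, a neuronal kinesin heavy chain that moves cargo along axons, went from 8.20 ± 0.18 (SD, n = 4) to 7.79 ± 0.07 (SD, n = 3) and 8.08 ± 0.26. The 2 other Kif5a probe sets did not show the pattern: at day 1 that with a mean of 10.52 was 0.11 above control, and that with a mean of 6.71 was 0.16 below it but even lower at day 3.

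The signalling enzymes and adaptors Dgkb, Dgkg, Plcd4, Dixdc1 and Dusp15 had dips from 0.25 to 0.31. Dgkb and Dgkg are kinases that consume diacylglycerol, Plcd4 is a phospholipase C that makes it, Dixdc1 acts in Wnt signalling, and Dusp15 is a phosphatase. Fbxo33, Rb1cc1, Art3, Scrg1 and Plscr1 made up the rest, with dips from 0.26 to 0.38. Rb1cc1 takes part in starting autophagy, and Plscr1 is a phospholipid scramblase. Scrg1, first known as a transcript raised in prion-infected brain, read 7.11, 7.25, 7.06 and 7.25 in control, 6.58, 6.79 and 6.98 at day 1 and 7.23, 7.16 and 7.10 at day 3. It overlapped control at day 3 and stood apart from it at day 1. Fbxo33 encodes an F-box protein, a substrate adaptor of a ubiquitin ligase, and 2 of its 3 probe sets were members. They went from 6.22 ± 0.32 (SD, n = 4) to 5.65 ± 0.17 (SD, n = 3) and 6.02 ± 0.14, and from 7.13 ± 0.12 to 6.87 ± 0.12 and 7.15 ± 0.04. The third had the day 1 arrays below all control and day 3 arrays as well, but a fall of 0.23 from control, under the limit of 0.25.

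**Figure D2:**
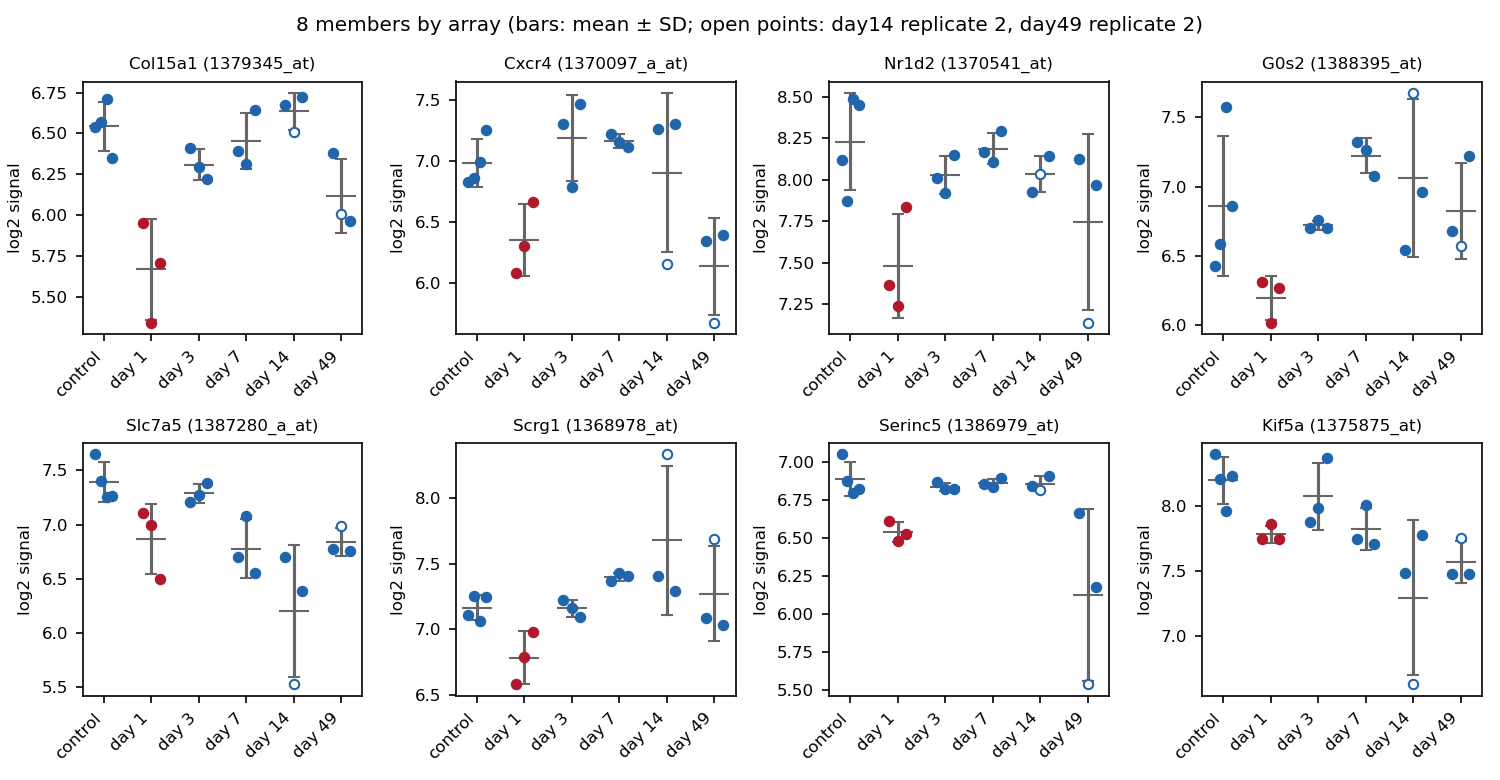
Log2 signal of selected members on every array, by group; points are arrays, bars are the mean and SD of a group (n = 4 for control, n = 3 for each day), and open points are day14 replicate 2 and day49 replicate 2. Col15a1, Cxcr4, Nr1d2, G0s2 and Scrg1 are near or above control at day 7, Slc7a5 and Kif5a are not, and the 3 Cxcr4 arrays of day 49 lie between 5.67 and 6.39.

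A member's symbol was in 4 of the 20 lists of pathway and cell type genes used for reference, which held 622 matched genes: Col15a1 in the meningeal matrix list, Nr1d2 in the clock list, Grm8 in the receptor list and Cd48 in the microglia and macrophage list. The clock list was mixed at day 1. Of its 17 matched genes 11 were below control and 6 of those were also below day 3, with a list median of -0.03 at day 1. Tef was 0.51 below control at day 1 and Hlf 0.34 below, while Nfil3 was 0.39 above, and all 3 were named after their values were seen. The labels used here give no time of day for the dissections, so its part in the Nr1d2 values was not tested. Of the eligible probe sets, 54.7% had a day 1 mean below control. In the list of 32 matched interferon genes 28 (87.5%) were below control at day 1, but only 14 (43.8%) were also below day 3, near the 40.0% of eligible probe sets, and none was a member. Of these 32 genes 9 had a mean under 5, which no eligible probe set had. In the cholesterol list 18 of 22 (81.8%) were below control and 12 (54.5%) also below day 3, again with no member.

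Cell type markers did not fall as whole lists at day 1. The median difference from control at day 1 was 0.07 for 28 meningeal and choroid plexus genes, of which 11 were below control, and 0.04 for 29 endothelial and pericyte genes, of which 10 were. Meningeal list means ranged over 7.11 to 7.38 log2 in control arrays and 7.11 to 7.49 at day 1, and endothelial ones over 6.15 to 6.26 and 6.24 to 6.38. Thus Col15a1 fell while most other genes of its list were above control. Microglia and macrophage genes had a median of 0.13, with 8 of 24 below control, and list means of 6.56 to 6.61 in control and 6.67 to 6.85 at day 1. Myelin genes (0.04, 9 of 25 below) and astrocyte genes (0.08, 6 of 24 below) were also higher on balance. Defining markers with a mean under 5, which carry little information here, included Cx3cr1, Tmem119, Mog, Aqp4, Flt1 and Foxc1. No gene of the 20 lists was called at day 7, 14 or 49 against control.

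At day 7, members were spread around the control level, with a median of -0.04 and a range from -0.61 to 0.36, and 30 of 44 were below it, against 50.9% of the eligible probe sets. The control arrays entered the choice of members and had to be high, so differences from control at later days are not independent of that choice. Day 7 arrays lay below all controls in 7 members (background 6.44%) and above all controls in 3 (background 2.47%). Limma called 0 of the 44 against control at day 7, with all adjusted p = 1, and 3 had an unadjusted p under 0.05 (background 0.886%). The background of a limma count is the share of all 31042 probe sets, dim ones included, in either direction. That of an array count is the share of the 14121 eligible probe sets. In the fit without the arrays that stand apart it also called 0, with 11 at an unadjusted p under 0.05 (background 4.89%). Those above all controls were Cnmd, Scrg1 and the second Cxcr4 probe set. Scrg1 read 7.37, 7.43 and 7.41 at day 7, that is 0.24 above control (SE 0.20). On the second Cxcr4 probe set the difference was 0.26 (SE 0.11).

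Slc7a5 was the member farthest below control at day 7. Its day 7 arrays read 6.70, 7.08 and 6.55, all below the lowest control, a difference of -0.61 (SE 0.22, limma adjusted p = 1). At day 14 they read 6.70, 5.53 and 6.38, a difference of -1.18 (SE 0.22, adjusted p = 0.301), the lowest of these being day14 replicate 2. The difference was -0.85 (SE 0.17, adjusted p = 0.345) without the arrays that stand apart. Day 49 arrays read 6.78, 6.98 and 6.75, a difference of -0.55 (SE 0.22, adjusted p = 0.306), and -0.62 (SE 0.17, adjusted p = 0.226) without these arrays. So Slc7a5 was low at day 1, overlapped control at day 3 and had all its later arrays below all controls, without passing the threshold at any of these later days. Fbxo33 was 0.40 below control at day 7 on the first of its probe sets (5.87, 5.86 and 5.74), and Ptprd 0.28 below (5.35, 5.41 and 5.23). Neither passed the threshold. The other Fbxo33 probe sets, both brighter, differed from control by -0.03 (SE 0.30) and -0.04 (SE 0.23) at day 7. A brighter Ptprd probe set, no member, with a mean of 6.44, was 0.24 above control (SE 0.26) at day 7 and 0.03 below it at day 1. On these brighter probe sets the low day 7 values were not seen.

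At day 14 the members were spread more widely around control. The median difference from control was -0.0003, with 22 members above and 22 below (49.7% of eligible probe sets were below), and the range was -1.18 to 0.51. Without the arrays that stand apart the median was -0.07, with 31 of 44 below control, against 55.1% of eligible probe sets, and the range -0.85 to 0.30. Limma called 0 of the 44 (9 at an unadjusted p under 0.05, background 13.1%), and 0 without these arrays (9 at an unadjusted p under 0.05, background 5.68%). Kif5a read 7.49, 6.63 and 7.78 at day 14, all below the controls, a difference of -0.90 (SE 0.20, adjusted p = 0.365), and -0.57 (SE 0.14, adjusted p = 0.555) without the arrays that stand apart. The brightest Kif5a probe set, no member, differed from control by -0.34 (SE 0.25) at day 14 and by 0.09 (SE 0.13) without these arrays, so the low value was not seen on it. The third Kif5a probe set, with a mean of 6.71, was low like the member. It differed by -0.72 (SE 0.20, limma adjusted p = 0.365), and by -0.41 (SE 0.14, adjusted p = 0.82) without these arrays. Dgkg read 5.86, 5.58 and 5.84, a difference of -0.42 (SE 0.11, adjusted p = 0.365), also with every array below the controls, and -0.33 (SE 0.09, adjusted p = 0.638) without the arrays that stand apart. A brighter Dgkg probe set, no member, differed from control by 0.05 (SE 0.14), and by -0.09 (SE 0.10) without these arrays. Scrg1 lay above all controls again (7.40, 8.33 and 7.30), as did the second Cxcr4 probe set (7.87, 7.91 and 7.94) and Art3, a member of the ADP-ribosyltransferase family (11.02, 11.05 and 10.98). In all, 4 members had their day 14 arrays below all controls (background 4.16%) and 3 above (background 3.55%). Without day14 replicate 2 these numbers were 8 (background 7.92%) and 4 (background 5.97%).

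At day 49 most members were below control again. Their means were below control in 43 of 44, with a median of -0.40, where 70.0% of the eligible probe sets were below with a median of -0.10. The 3 arrays differed. The median over members was -0.11 on replicate 1, -0.81 on replicate 2 and -0.25 on replicate 3, against -0.01, -0.20 and -0.05 for all 14121 eligible probe sets. Without the arrays that stand apart, which removes day49 replicate 2, 38 of 44 were below control with a median of -0.16, where the eligible probe sets had a median of -0.03 and 59.3% were below. All 3 day 49 arrays lay below all 4 controls in 12 members (background 8.43%), also 12 without day49 replicate 2 (background 10.9%), and above them in 0 (background 2.33%, and 4.38% without that array). Limma called 0 of the 44, with 20 at an unadjusted p under 0.05, all lower (background 15.4% in either direction). It called 0 without these arrays, with 18 at an unadjusted p under 0.05, all lower (background 12% in either direction). With all 3 day 49 arrays, every role had a median below control, from -0.54 for transport to -0.23 for matrix genes. The size of these medians depended on day49 replicate 2. After both outlying arrays were removed, the matrix median was -0.04, with 3 of 4 probe sets below control, near the -0.03 of eligible probe sets. For transcription and RNA the corresponding median was -0.10, with 7 of 9 below. All 10 receptor and adhesion probe sets were below control, with and without the arrays that stand apart, with medians of -0.34 and -0.27. All 4 transport probe sets were as well, with medians of -0.54 and -0.40. Kif5a read 7.48, 7.76 and 7.48 at day 49, all below the lowest control, a difference of -0.63 (SE 0.20, adjusted p = 0.306), and -0.72 (SE 0.14, adjusted p = 0.226) without these arrays. On the brightest Kif5a probe set the day 49 differences were -0.13 (SE 0.25) and 0.05 (SE 0.13). On the third they were -0.45 (SE 0.20, limma adjusted p = 0.316) and -0.57 (SE 0.14, adjusted p = 0.226). Serinc5, a membrane protein of the serine incorporator family, differed from control by -0.76 at day 49 (SE 0.17, adjusted p = 0.306), and by -0.47 (SE 0.10, adjusted p = 0.226) without the arrays that stand apart.

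**Figure D3:**
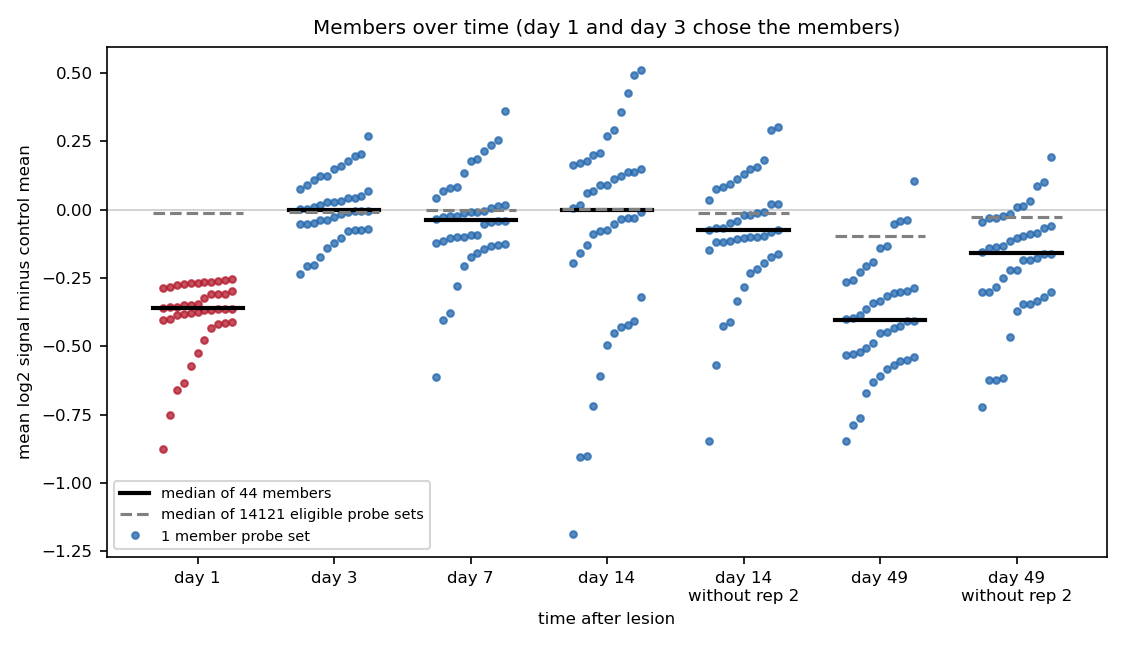
Mean log2 signal of each of the 44 member probe sets minus its control mean (points) at each day, with the median over members (solid line) and over the 14121 eligible probe sets (dashed line); days 14 and 49 are shown also without the replicate that stands apart. Day 1 is low by the choice of members, days 3 and 7 lie near 0 (medians -0.0003 and -0.04), and the day 49 median is -0.40 with 3 arrays and -0.16 with 2.

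**Figure D4:**
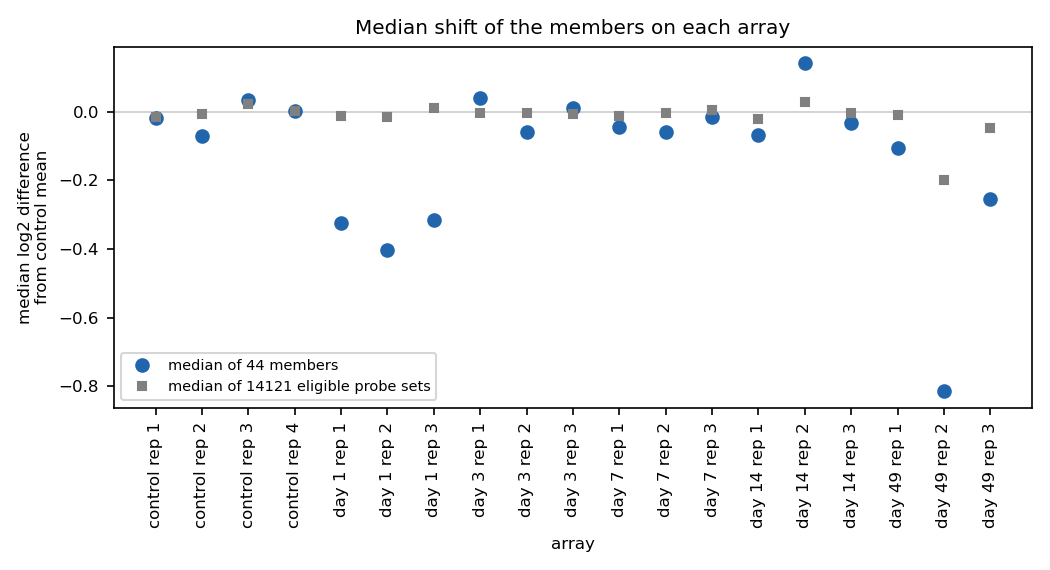
Median over the 44 members (circles) and over the 14121 eligible probe sets (squares) of the log2 difference from the control mean, for each of the 19 arrays. The day 1 arrays lie between -0.40 and -0.32 by the choice of members, and day49 replicate 2 is the lowest array of all at -0.81.

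The arrays of days 7, 14 and 49 entered the choice of members only through the minimum mean of 5 over the 19 arrays. Plscr1 had the lowest mean of the members, 5.02. It read 6.70 on day14 replicate 2, against 5.13 and 4.87 on the other day 14 arrays, and met that minimum only with replicate 2. The comparison of day 49 with day 7 took in all 44 members, whether or not they were near control at day 7. They were lower at day 49 in 43 of 44 cases, with a median of -0.34, where 71.9% of eligible probe sets were lower and their median was -0.09. Without the arrays that stand apart 36 of 44 were lower, with a median of -0.14, against 63.7% and -0.03. Day 49 arrays lay below all day 7 arrays in 13 members (background 7.9%) and above them in 0 (background 2.52%). Without day49 replicate 2 these numbers were 15 (background 10.8%) and 0 (background 5.29%). Limma called 0 members, with 13 at an unadjusted p under 0.05, all lower (background 8.92% in either direction). Without these arrays 12 were at an unadjusted p under 0.05, all lower (background 4.19% in either direction).

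Cxcr4 had the smallest p of the members in that comparison. On the probe set with the larger dip, day 7 arrays read 7.23, 7.16 and 7.11 and day 49 arrays 6.34, 5.67 and 6.39, a difference of -1.03 (SE 0.28, adjusted p = 0.51). On the second they read 7.89, 7.91 and 7.80 against 7.09, 7.44 and 7.53, a difference of -0.51 (SE 0.12, adjusted p = 0.51). The third, no member, read 7.62, 7.62 and 7.48 against 6.79, 6.55 and 7.10, a difference of -0.76 (SE 0.18, adjusted p = 0.51). On all 3 probe sets each day 49 array was below each day 7 array, and without day49 replicate 2 the differences were -0.80, -0.56 and -0.63. None passed the threshold over all probe sets, and the 3 probe sets read the same RNA.

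Serinc5 and Cd48 are given as examples from the 13 member probe sets, those of Cxcr4 included, whose day 49 arrays all lay below all day 7 arrays. Serinc5 read 6.86, 6.83 and 6.89 at day 7 and 6.66, 5.54 and 6.18 at day 49, a difference of -0.73 (SE 0.18, adjusted p = 0.51). It was -0.44 (SE 0.11, adjusted p = 0.968) without the arrays that stand apart. Cd48 read 11.08, 11.07 and 11.16 against 10.90, 10.65 and 10.78, a difference of -0.32 (SE 0.09, adjusted p = 0.51), and -0.26 (SE 0.09, adjusted p = 0.968) without these arrays. The groups did not overlap in either gene, and neither passed the threshold.

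The other comparisons among later days also had 0 limma calls. Day 14 against day 7 had a member median of 0.03, with 19 of 44 lower, and 0 calls (3 at an unadjusted p under 0.05, background 5.4%). Without the arrays that stand apart the sign turned, to a median of -0.05 with 27 of 44 lower and 0 at an unadjusted p under 0.05 (background 3.84%). Day 49 against day 14 had a median of -0.40 and 0 calls (23 at an unadjusted p under 0.05, background 14.2%). Without the arrays that stand apart that median was -0.04, with 10 at an unadjusted p under 0.05 (background 5.56%). Arrays of day 14 lay below all day 7 arrays in 3 members (background 4.79%) and above them in 2 (background 5.05%). Arrays of day 49 lay below all day 14 arrays in 9 (background 5.58%) and above them in 1 (background 1.51%). Without the arrays that stand apart, 8 were below (background 13.4%) and 6 above (background 13.8%) at day 14 against day 7, and 16 below (background 21.5%) and 7 above (background 13.1%) at day 49 against day 14. The F test over the 3 days called 0 of the 44 (17 at an unadjusted p under 0.05, background 8.5%), and 0 without the arrays that stand apart (10 at an unadjusted p under 0.05, background 4.17%). Slc7a5 was the only member higher at day 49 than at day 14 with an unadjusted p under 0.05, by 0.63 (SE 0.23, adjusted p = 0.343). Its lowest array was day14 replicate 2, and with both outlying arrays removed the difference was 0.22 (SE 0.19, adjusted p = 0.953), with 0 members higher at an unadjusted p under 0.05.

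Other probe sets of the member genes read the same RNA through other probes, so they bear on whether a dip belongs to 1 probe set only, not on whether it would recur in other animals. There were 33 such probe sets, for 22 of the genes, and 23 of them, for 20 genes, had a mean of at least 5. In 18 of these 23 the day 1 mean was below both the control and the day 3 mean, that is 78.3%, against 40.0% of the eligible probe sets. Their median fell by 0.14 from control to day 1 and rose by 0.16 to day 3, less than the limit the members had to pass. In 1 of them, the third of Fbxo33, all day 1 arrays lay below all control and day 3 arrays. The other probe sets of Col14a1 and Col15a1 were lower at day 1 by 0.61 and 0.54, with 1 of the 3 day 1 arrays, at 7.59 and 7.96, within the controls. Genes whose other bright probe set did not dip included Kif5a, Grm8 and Arsa. From day 7 to day 49, 17 of the 23 (73.9%) were lower, with a median of -0.26, and 16 (69.6%) without the arrays that stand apart, with a median of -0.10. These shares are near the 71.9% and 63.7% of eligible probe sets that were lower, while the medians are below the -0.09 and -0.03 of eligible probe sets.

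**Figure D5:**
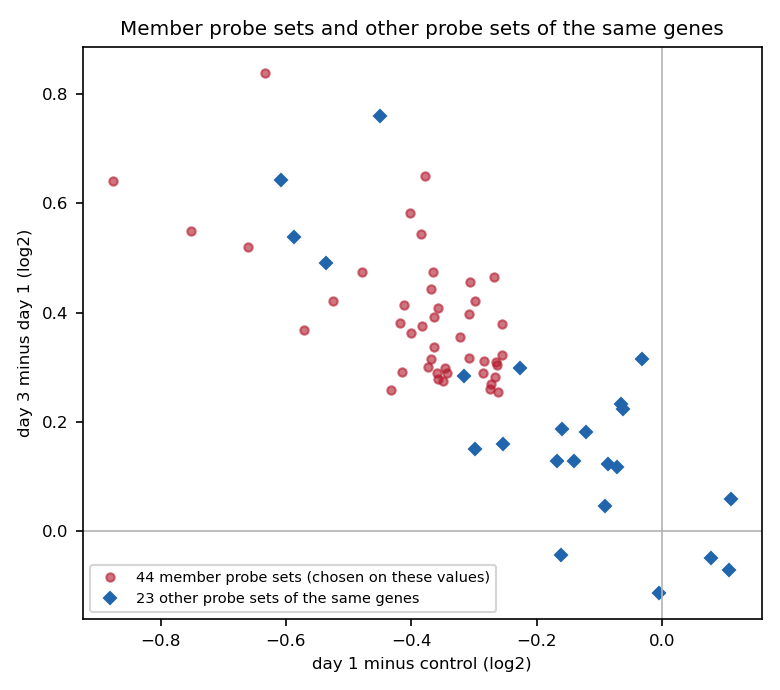
Day 1 minus control (horizontal axis, log2) and day 3 minus day 1 (vertical axis, log2) for the 44 member probe sets (circles, chosen on these values) and the 23 other probe sets of the same genes with a mean of at least 5 (diamonds). Of the diamonds 18 lie to the upper left, lower at day 1 than both control and day 3.

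Averaged over members and all 19 arrays, the profile relative to control was -0.38 at day 1, 0.01 at day 3, -0.04 at day 7, -0.08 at day 14 and -0.40 at day 49. Without the arrays that stand apart, the member median, not the mean, was -0.07 at day 14 and -0.16 at day 49. Among eligible probe sets of other genes, the 3 whose 6 group means followed the 19-array profile most closely were those of Srrt (Pearson r = 0.975), Asah1 (0.973) and Vps50 (0.970). Srrt takes part in the processing of capped RNA, Asah1 is the lysosomal acid ceramidase, and Vps50 is a subunit of an endosomal recycling complex. Their changes were small, with Asah1 at 9.34 in control, 9.20 at day 1, 9.40 at day 3 and 9.19 at day 49, so none met the limit of 0.25. These correlations run over 6 group means that share the arrays which stand apart, and they are a description only.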

How the data were processed

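Deep motor cortex RNA, 6 ug per sample per the labels, was measured on 19 arrays. Deposited values are log2 signals per probe set, which the authors obtained with RMA, as the submitters' processing notes name it without a version. RMA makes the distributions of the arrays alike, so a change shared by every transcript could not be detected. Depth has no meaning here, and the number of arrays limits the precision.

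From 31099 probe sets, 57 array controls were left out. The platform's symbols were brought up to date with a GRCr8 gene table, by gene ID for 20758 probe sets and by accession for 2, and 66 kept the old symbol. Thus 20826 probe sets carried 1 symbol, 436 more than 1, and 9780 were unnamed here. Scan dates and batches were not analysed here.

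Each probe set was fitted with limma 3.58.1 in R 4.3.3 as 6 group means over all arrays, with eBayes, two-sided, and Benjamini-Hochberg adjustment over 31042 probe sets at a threshold of 0.05. The fit was tested on simulated data. The members, lists and rules were chosen with earlier results of these data known. Values are named for the 15 largest dips, genes with more than 1 member probe set, list members, for each of days 7, 14 and 49 the 3 farthest above and below control with arrays that do not overlap it, members past a threshold, those next to the limit and the 3 likest profiles. Serinc5 and Cd48 in the comparison of days 49 and 7, the other probe sets, and genes outside this rule were chosen after their values were seen. Roles were assigned by hand. Alternatives were other normalizations, a filter on dim probe sets, trend and robust eBayes, array weights, a replicate block, 1 probe set per gene, only the groups compared, and arrays left out; leaving out both arrays that stand apart was chosen after seeing the data. Plots were drawn with matplotlib 3.10.9.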

Additional observations from a re-analysis of the deposited data

Results flagged for a closer look

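Of 44 member probe sets, 1 had a control array far from the other 3 by Dixon's criterion, which chance meets in about 5% of groups: Plcd4, a phospholipase C, read 8.73 in control replicate 4, against 8.96 or more in the others.

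Art3 differed between later days, with all 3 day 14 arrays above and all 3 day 49 arrays below the 4 controls, a difference of -0.25 between these days. The control arrays read 10.90, 10.95, 10.89 and 10.89, the day 14 arrays 11.02, 11.05 and 10.98, and the day 49 arrays 10.80, 10.76 and 10.75. In limma the difference between days 49 and 14 had an adjusted p = 0.343, and -0.23 with adjusted p = 0.778 without the arrays that stand apart.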

How the results depend on the processing

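Of 163 alternative values, 148 kept within the limits set for calling a value unchanged and 15 did not. With array weights, limma called 21 members at day 49 against control (20 lower), 18 against day 7, 13 against day 14 and 16 in the F test, where 21.0%, 18.9%, 9.62% and 15.6% of all probe sets were called; these weights were 3.7 for day49 replicate 3, 0.385 for replicate 1 and 0.067 for replicate 2, so the day 49 calls rest largely on 1 array. Leaving out single arrays gave 0 to 10 members called at day 49 against control, 0 to 4 against day 7 and 0 to 1 against day 14, the highest values without day49 replicate 1, where 7.84%, 0.831% and 0.0451% of all probe sets were called; in the other comparisons it gave 0 to 0. The number of members was 68 with a minimum dip of 0.2 and 18 with 0.35, and with single arrays left out it ran from 40 to 130: 91 without control replicate 3, 82, 67 and 130 without day1 replicates 1, 2 and 3. Fewer arrays make the condition of no overlap easier to meet. Members were also lost: of the 44, 34 remained without control replicate 3, and 41, 34 and 35 without day1 replicates 1, 2 and 3. Quantile normalization again gave 35, of which 34 were among the 44. The median difference at day 7 against control ran from -0.0691 to -0.0219 with single arrays left out, at -0.0641 without control replicate 2 and -0.0691 without day7 replicate 3. At day 14 it ran from -0.07 to 0.05 and at day 49 from -0.53 to -0.16. With the replicate number as a block, limma called 0 members in each comparison; deviations of same-numbered arrays correlated by 0.0935 to 0.265 between control and day 7, -0.146 to 0.0706 for day 14 and -0.0669 to 0.42 for day 49, so the numbers were not taken as pairs in these comparisons. Every same-numbered pair was above 0.1 for control with day 1 (0.117 to 0.269) and day 1 with day 49 (0.239 to 0.453), the first of which chose the members while the second was not compared. With so few arrays, a p that misses the threshold does not show that members did not differ.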
